A study of Homo sapiens with 3 samples.

Results

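HUSH, SETDB1 and the enzymes that methylate lysine 9 of histone H3 (H3K9) were represented by 10 genes out of 20381 that the CRISPR library targeted. The genes were SETDB1, ATF7IP, TRIM28, MPHOSPH8, FAM208A, PPHLN1, MORC2, EHMT1, EHMT2 and SUV39H1. They were chosen by name, with earlier results of these data known. Every single guide RNA (sgRNA) named after one of them was taken, which gave 99 of the 189398 gene-targeting sgRNAs seen. Each gene had 10 sgRNAs except TRIM28, which had 9 because its number 8 was seen in no library. All 10 genes are protein coding. The deposited tables name each sgRNA by gene and number only, so sgRNAs are called by those numbers here.

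These proteins act in a repressive system that is separate from polycomb, which marks lysine 27 of H3. The human silencing hub (HUSH) complex recognises H3K9 trimethylation through a chromodomain protein and recruits the methyltransferase SETDB1, so that the mark spreads over transposable elements, integrated transgenes and some genes. TRIM28 brings SETDB1 to DNA bound by KRAB zinc finger proteins, whereas EHMT1 and EHMT2 form the heterodimer that lays down most H3K9 dimethylation in euchromatin. SUV39H1 trimethylates H3K9 in pericentric heterochromatin. In other tumour models, loss of SETDB1 or of HUSH has been tied to interferon responses and antigen presentation, so the genes are of interest in a screen that reads out MHC class I (MHC-I).

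The cells were K-562, a human leukaemia line with little MHC-I on its surface, made to express Cas9. They received the genome-wide sgRNA library by lentivirus at a low viral dose (multiplicity 0.3), and 1 μg/mL puromycin was applied for 72 h from 48 h after infection. The HLA-B high sorted library came from cells given 1 ng/mL interferon-γ (IFN-γ) for 24 h and sorted for high staining with an HLA-B antibody on days 18 and 25. The high-screen control was the unsorted pool of that screen. The low-screen control was the unsorted pool of the opposite screen, which used 25 ng/mL IFN-γ and sorts on days 7 and 15. For neither pool do the labels give the day of harvest, and whether a pool itself received IFN-γ is not stated. All 3 populations carried Cas9 and an sgRNA, and whether the Cas9 line was a single clone is not given in the sources used here.

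Counts are reads of each sgRNA amplified from genomic DNA, so they follow the abundance of cells that carry it and say nothing of the expression of its target. Each group was 1 library, so no difference below has a replicate check, and every test compares libraries and not conditions. The HLA-B high sorted library held 34266318 matched reads, the high-screen control 22562241 and the low-screen control 98426251. Of the 200682 sgRNAs seen in any library, 49.6% were listed in the HLA-B high sorted library, against 97.7% in the high-screen control and, by the same measure, 93.4% in the low-screen control. The loss reached controls too, since 49.6% of 6645 safe-targeting sgRNAs (which cut sites of no known function) and 36.3% of 4639 non-targeting sgRNAs were absent after the sort. Intervals below are exact 95% intervals and cover counting error only, because PCR reads without molecular identifiers are not independent molecules.

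The sort asked whether cells that lost 1 of the 10 genes were over- or under-represented among cells with high HLA-B, and none of the genes was called in either direction. The 99 sgRNAs drew 11395 reads after the sort (HLA-B high sorted library), 8736 reads in the high-screen control and 43675 reads in the low-screen control. In the HLA-B high sorted library 51 of the 99 were absent, a share of 51.5% (41.3 to 61.7%), beside 50.8% over all gene-targeting sgRNAs. Reads that remained sat in few sgRNAs, as 1 sgRNA held 15.5% of them, 5 held 44.7% and 10 held 70.0%. Each gene had 3 to 6 of its sgRNAs listed after the sort.

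Enrichment was measured as a log2 ratio of sgRNA abundance at equal depth with 1 read added. An sgRNA needed 10 reads or more in the unsorted pool to be scored. Against the high-screen control 95 of the 99 sgRNAs could be scored, and 15 of them lay above 1, which is 15.8% (9.12 to 24.7%) beside 12.6% of all gene-targeting sgRNAs. Another 68 lay below -1, which is 71.6% (61.4 to 80.4%) beside 70.8%. The safe-targeting sgRNAs gave 11.7% above 1 and 71.5% below -1. The median of the 10 gene medians was -4.84, and the median over all genes was -4.54. An absent sgRNA takes its ratio from the added read and its count in the pool, and 50 of the 95 were absent after the sort. With absent sgRNAs set instead at 3 reads, the limit that a count of 0 allows (0.0875 CPM after the sort, where CPM is counts per 1e+06 matched reads), the members' median was -3.61 and that over all genes -3.66. The 10 genes thus lay close to the background of the sort by each of these shares and medians.

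**Figure D1:**
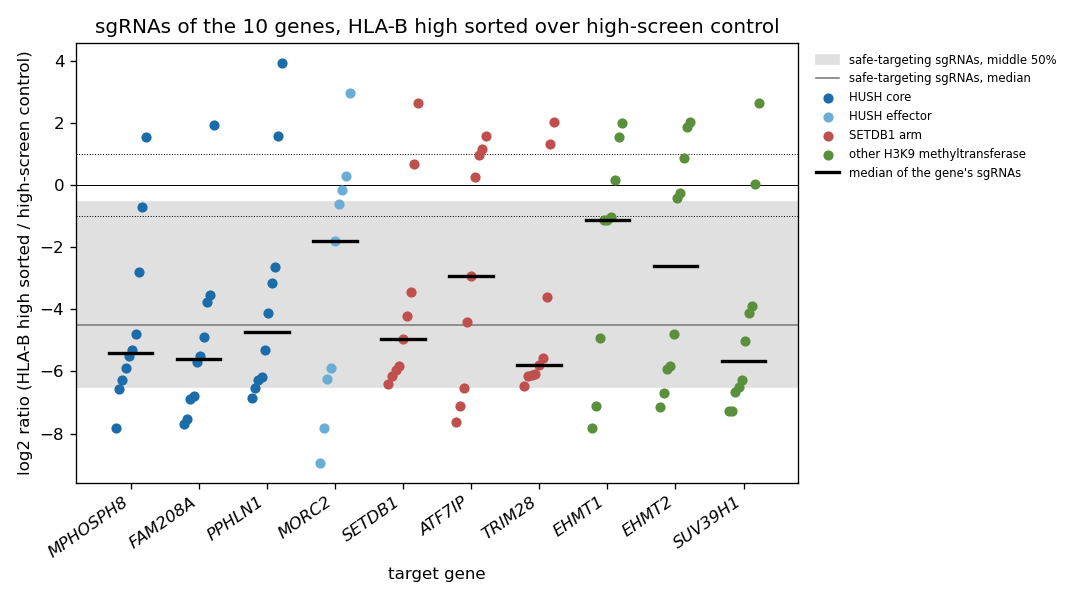
Each point is 1 sgRNA, placed by its log2 ratio of the HLA-B high sorted library over the high-screen control, with the 10 genes along the horizontal axis coloured by role and dotted lines at 1 and -1. The grey band is the middle 50% of the safe-targeting sgRNAs (-6.50 to -0.55) around their median of -4.49, and every black gene median lies inside it, from -5.79 for TRIM28 to -1.11 for EHMT1.

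Genes were scored by redundant siRNA activity (RSA), which orders all sgRNAs by ratio and asks, rank by rank, how unlikely it is that so many sgRNAs of a gene stand so high, keeping the smallest hypergeometric p. The call required an RSA p under 0.001 and 4 or more sgRNAs of the gene at the best rank or beyond. The rule called 0 of the 10 genes enriched and 0 depleted against the high-screen control, beside 0.532% and 0.418% of all 20314 genes tested. Because the score takes a minimum over ranks its p runs small, and 22.4% of all genes had an enriched RSA p under 0.05 and 22.7% a depleted one. Among the 10 genes 1 had such an enriched p (EHMT1) and 2 such a depleted p (MORC2 and FAM208A). Absent sgRNAs are ranked by their pool counts, so a depleted p that rests on them follows abundance in the pool. It does not measure how strongly cells were lost. After Benjamini-Hochberg adjustment over all genes the smallest p of the 10 was 0.199 for enrichment and 0.180 for depletion.

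The 3 core subunits of HUSH had the highest share of sgRNAs below -1 among the roles. Of their 30 scored sgRNAs 25 lay below -1 (83.3%, 65.3 to 94.4%), beside 70.8% of all gene-targeting sgRNAs, and 4 lay above 1 (13.3%). The interval covers the background share, and the sgRNAs of a gene share its target, so they are not independent replicates.

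MPHOSPH8 (ENSG00000196199, chr13:20207799-20247581 on the plus strand of GRCh37) encodes the chromodomain subunit of HUSH that reads H3K9 trimethylation. Its 10 sgRNAs summed to 18.2 CPM in the HLA-B high sorted library, against 43.0 CPM in the high-screen control and 42.3 CPM in the low-screen control. Only 3 of the 10 were found after the sort, and number 6 with 321 reads (342 in the high-screen control) and number 4 with 276 reads (61 in the high-screen control) carried nearly all of the signal. Number 4 was the single sgRNA above 1, at 1.56, while the lowest was number 7 at -7.83, which had 0 reads after the sort against 180 in the high-screen control. The gene median was -5.41, at percentile 30.8 of all genes.

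FAM208A (ENSG00000163946, chr3:56654160-56717293, minus strand), now named TASOR, encodes the scaffold that holds HUSH together. Its summed level was 10.2 CPM in the HLA-B high sorted library, against 35.8 CPM in the high-screen control and 42.0 CPM in the low-screen control, a ratio to the high-screen control of 0.286, the lowest of the 10 genes. A single sgRNA, number 9, held 97.7% of its sorted reads, with 343 after the sort, 58 in the high-screen control and 422 reads in the low-screen control. The other 9 sgRNAs had between 0 and 7 reads after the sort and all lay below -1, the lowest being number 8 at -7.71 (0 reads against 165). Its median was -5.59 (percentile 26.1) with a depleted RSA p of 0.0302, adjusted p 0.194, and the highest ratio was 1.95 for number 9.

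PPHLN1 (ENSG00000134283, chr12:42632249-42853517, plus strand) encodes periphilin, the third core subunit. It was the most abundant of the 10 genes after the sort at 80.0 CPM, against 49.8 CPM in the high-screen control and 37.9 CPM in the low-screen control. Most of that sum came from 2 sgRNAs. Number 10 had 1764 reads after the sort, against 75 in the high-screen control and 293 reads in the low-screen control, a log2 ratio over the high-screen control of 3.94 that was the highest of all 95. Number 8 had 887 reads, against 195 and 243 in those pools, at 1.58. The other 8 sgRNAs had at most 76 reads after the sort, and all of them lay below -1, down to -6.85 for number 2. The median was therefore -4.72 (percentile 46.6) and the enriched RSA p 0.0903, while the ratio of the sums was 1.61, where the median over 20371 genes was 0.670.

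MORC2 (ENSG00000133422, chr22:31321117-31364760, minus strand) encodes an ATPase that works with HUSH to compact chromatin. It was less one-sided, with 37.4 CPM in the HLA-B high sorted library, 51.8 CPM in the high-screen control and 52.5 CPM in the low-screen control. Its 10 sgRNAs split into 4 that were absent after the sort and 6 with 58 to 538 reads. Number 6 had 261 reads, against 21 in the high-screen control and 82 reads in the low-screen control, and was the highest at 2.99. Number 7 had the most reads of the gene after the sort, 538, against 154 in the low-screen control, but only 5 in the high-screen control, so it fell under the minimum and was not scored there. The lowest was number 3 at -8.94, with 0 reads after the sort against 388 in the high-screen control and 593 reads in the low-screen control. This sgRNA alone set the depleted RSA p of 0.0211 (adjusted p 0.180). The gene median was -1.81, at percentile 82.9.

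**Figure D2:**
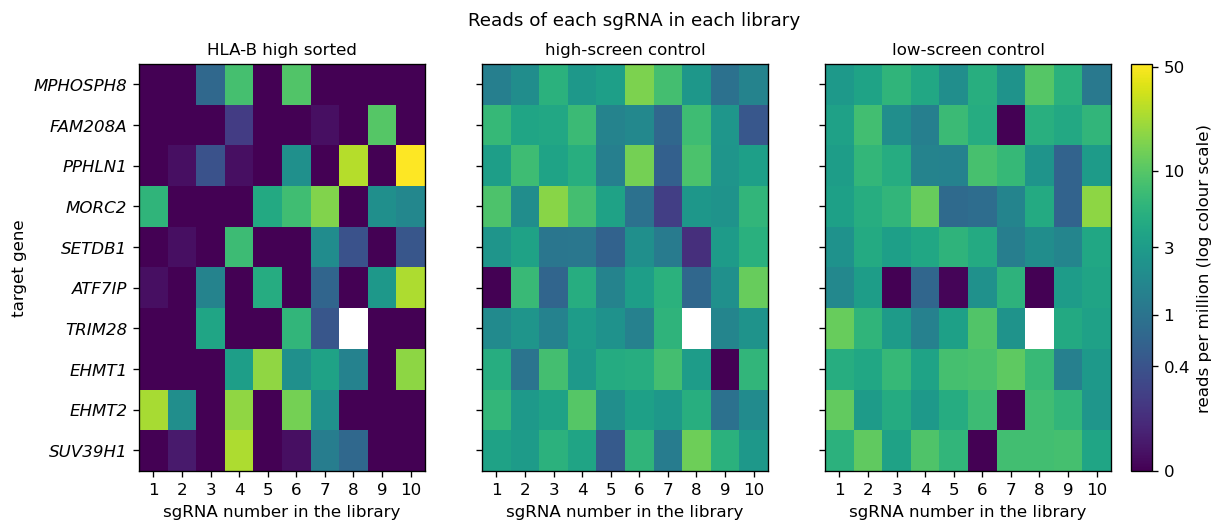
Level in CPM of each sgRNA (columns, by sgRNA number) of the 10 genes (rows) in the 3 libraries, on a log colour scale, with darkest violet for 0 reads and white for the TRIM28 sgRNA seen in no library. In the HLA-B high sorted library 51 of 99 cells are at 0 and a few bright ones hold most reads, led by PPHLN1 number 10 at 51.5 CPM, whereas the high-screen control has 2 sgRNAs at 0 and the low-screen control 5.

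SETDB1, ATF7IP and TRIM28 form the arm that deposits H3K9 trimethylation. Of their 27 sgRNAs scored against the high-screen control 5 lay above 1 (18.5%, 6.30 to 38.1%, beside 12.6% of all gene-targeting sgRNAs) and 19 below -1 (70.4%, 49.8 to 86.2%, beside 70.8%), with a median of -4.96. Against the low-screen control only 1 of 26 lay above 1 (3.85%, 0.0973 to 19.6%, beside 13.2%) and 20 below -1 (76.9%, 56.4 to 91.0%, beside 71.5%).

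SETDB1 (ENSG00000143379, chr1:150898739-150937220, plus strand) is the methyltransferase that HUSH and TRIM28 recruit. Its sgRNAs summed to 9.95 CPM in the HLA-B high sorted library, the lowest level of the 10 genes, against 20.5 CPM in the high-screen control and 33.3 CPM in the low-screen control. The intervals of the 3 levels (8.92 to 11.1, 18.7 to 22.4 and 32.2 to 34.5 CPM) were apart, for counting error only. After the sort 5 of its 10 sgRNAs were absent, and number 4 alone held 71.3% of reads, with 243, against 25 in the high-screen control and 400 reads in the low-screen control. Number 4 was the highest at 2.64 and number 9 the lowest at -6.42 (0 reads against 67). The median was -4.96 (percentile 41.5), and neither the enriched RSA p of 0.0582 nor the depleted one of 0.180 met the call. The best rank of the enriched p took in all 9 scored sgRNAs, of which 7 lay below -1. At that sorted level the 5 absent sgRNAs, with 14 to 67 reads in the high-screen control, could not be placed more finely than the floor allows.

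ATF7IP (ENSG00000171681, chr12:14518610-14655865, plus strand) encodes the partner that keeps SETDB1 stable and nuclear. It had 33.8 CPM in the HLA-B high sorted library, 37.6 CPM in the high-screen control and 20.3 CPM in the low-screen control. Number 10 had 827 reads after the sort, 71.4% of the gene's, against 275 in the high-screen control and 369 reads in the low-screen control, a log2 ratio over the high-screen control of 0.98. Numbers 5 and 3 were above 1, at 1.59 (162 reads against 35) and 1.18 (53 against 15), and both had next to no reads in the low-screen control, 1 and 0. Number 2 was lowest at -7.63, with 0 reads after the sort against 156 in the high-screen control. The gene median was -2.93 (percentile 71.1) and the enriched RSA p 0.0680.

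TRIM28 (ENSG00000130726, chr19:59055431-59062089, plus strand), also known as KAP1, is the corepressor that links KRAB zinc finger proteins to SETDB1. Its 9 sgRNAs summed to 10.4 CPM in the HLA-B high sorted library, 22.5 CPM in the high-screen control and 45.4 CPM in the low-screen control. The intervals were again apart, for counting error only. Number 6 had 209 reads after the sort, against 33 in the high-screen control and 923 reads in the low-screen control. Number 3 had 133 reads, against 34 and 295 in those pools. These were the sgRNAs above 1, at 2.03 and 1.34. Another 6 were absent after the sort and the last, number 7, had 15 reads against 128 in the high-screen control. The lowest ratio was -6.48 for number 4, the median -5.79 (percentile 20.7), and the RSA p was 0.0666 for enrichment and 0.10 for depletion. As for SETDB1, the best rank of the enriched p took in all 9 sgRNAs, of which 7 lay below -1. Number 6 shows how far the reference mattered, since it lay at 2.03 over the high-screen control and at -0.62 over the low-screen control.

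**Figure D3:**
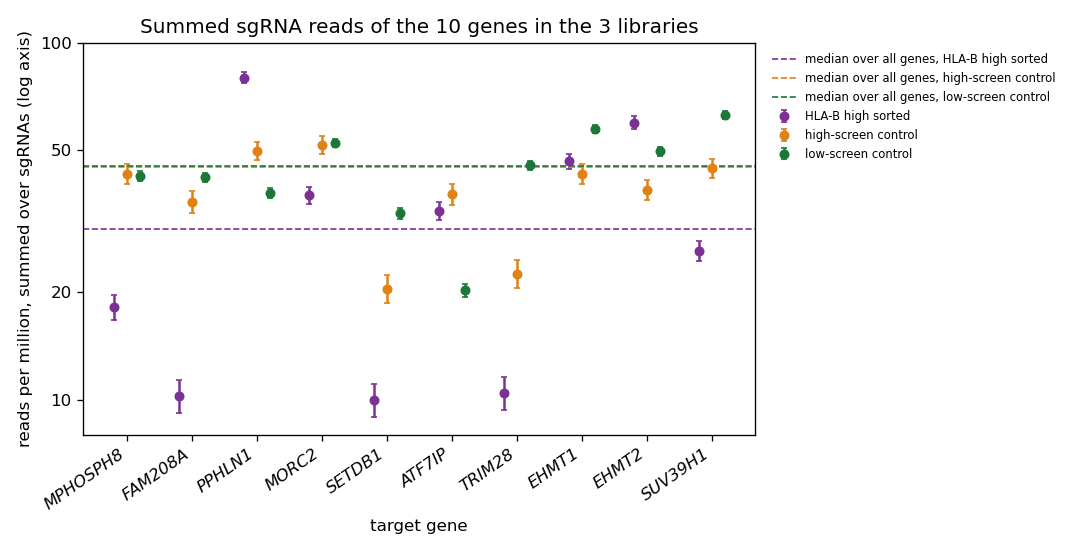
Summed sgRNA level in CPM of each gene (log axis) in the HLA-B high sorted library, the high-screen control and the low-screen control, with exact 95% Poisson intervals, each from 1 library, and dashed lines at the median over all genes of 30.0, 44.9 and 45.1 CPM. SETDB1, TRIM28, FAM208A, MORC2 and SUV39H1 are lowest in the HLA-B high sorted library and highest in the low-screen control. The medians over all genes have that same order. PPHLN1 and EHMT2 are highest in the HLA-B high sorted library, and ATF7IP is lowest in the low-screen control.

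The other methyltransferases, EHMT1, EHMT2 and SUV39H1, had 29 scored sgRNAs, of which 5 lay above 1 (17.2%, 5.85 to 35.8%, beside 12.6% of all gene-targeting sgRNAs) and 19 below -1 (65.5%, 45.7 to 82.1%, beside 70.8%).

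EHMT1 (ENSG00000181090, chr9:140513444-140764468, plus strand) encodes GLP, a partner in the H3K9 dimethyltransferase. It had the highest gene median of the 10, -1.11, at percentile 89.7 of all genes. Its summed level was 46.6 CPM in the HLA-B high sorted library, against 42.9 CPM in the high-screen control and 57.4 CPM in the low-screen control, and the sorted interval (44.4 to 49.0 CPM) overlapped that of the high-screen control (40.3 to 45.7 CPM). After the sort 6 of its 10 sgRNAs were found, with 52 to 631 reads. Number 5 had 631 reads, against 104 in the high-screen control and 791 reads in the low-screen control. Number 10 had 605, against 135 and 278 in those pools. They lay at 1.99 and 1.56, and number 3 was the lowest at -7.81 (0 reads against 177). The enriched RSA p of 0.0272, reached with 6 of 9 sgRNAs at or beyond the best rank, was the smallest of the 10 genes and ranked 2773 of all genes, with an adjusted p of 0.199. At that rank 4 of the 6 sgRNAs had ratios between -1.13 and 0.18, which is near or under the pool but above the median sgRNA of the sort.

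EHMT2 (ENSG00000204371, chr6:31847536-31865475, minus strand) encodes G9a, the other subunit of that dimer. It summed to 59.8 CPM in the HLA-B high sorted library, 38.7 CPM in the high-screen control and 49.7 CPM in the low-screen control, with a ratio to the high-screen control of 1.54. Its sgRNAs divided evenly into 5 that were absent after the sort and 5 with 72 to 792 reads. Number 1 had 792 reads, against 141 in the high-screen control and 1118 reads in the low-screen control. Number 6 had 481, against 77 and 706 in those pools, and was the highest at 2.03, with number 1 at 1.88. Number 8 was lowest at -7.15 (0 reads against 112). The median was -2.60 (percentile 74.5) with an enriched RSA p of 0.0742. The gene lies within the MHC region of chromosome 6, but these values count sgRNAs and say nothing of neighbouring genes.

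SUV39H1 (ENSG00000101945, chrX:48553945-48567407, plus strand) had 26.1 CPM in the HLA-B high sorted library, 44.5 CPM in the high-screen control and 62.8 CPM in the low-screen control. The intervals were apart, for counting error only. Number 4 held 91.9% of its sorted reads, with 823 reads, against 85 in the high-screen control and 898 reads in the low-screen control, and was the highest at 2.66. Number 3 was lowest at -7.28, with 0 reads after the sort against 123 in the high-screen control. The median was -5.65 (percentile 24.3) and the depleted RSA p 0.103.

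The low-screen control gave a second reference, which shares the HLA-B high sorted library with the first, so the 2 comparisons are not independent. Here 93 of the 99 sgRNAs were scored, 13 lay above 1 (14.0%, 7.66 to 22.7%, beside 13.2% of all gene-targeting sgRNAs) and 69 below -1 (74.2%, 64.1 to 82.7%, beside 71.5%). RSA called 0 genes enriched and 0 depleted, beside 0.645% and 0.586% of all 20295 genes. Of the 15 sgRNAs above 1 against the high-screen control 13 could be scored here and 8 were above 1. The median of gene medians was -6.97, against -5.62 over all genes, and with absent sgRNAs at 3 reads it was -4.57 against -3.87.

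MORC2 came nearest to the call for enrichment in this comparison. It had 4 of 10 sgRNAs above 1, numbers 7, 6, 5 and 9, at 3.31, 3.17, 2.48 and 1.73. They had 538, 261, 150 and 73 reads after the sort, against 154, 82, 76 and 62 in the low-screen control and 5, 21, 81 and 54 in the high-screen control. Its exact hypergeometric RSA p was 0.00776 with an adjusted p of 0.156, and it ranked 1002 of all genes. The same gene had 4 absent sgRNAs with 445 to 1190 reads in the low-screen control, so its sgRNAs pointed both ways, and the median was -1.30 (percentile 89.0). PPHLN1 followed with an enriched RSA p of 0.0233 from its numbers 10 and 8 alone.

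FAM208A was at the other end. Its median was -8.29 (percentile 1.5), with 8 of 9 scored sgRNAs below -1, and its depleted RSA p was 0.00964 (adjusted p 0.158, rank 1226). The 7 absent sgRNAs that were scored had 208 to 768 reads in the low-screen control. SUV39H1 and TRIM28 had medians of -7.91 and -7.84, at percentiles 4.52 and 5.42, with depleted RSA p of 0.0430 and 0.0523. EHMT2 stood at -7.43, MPHOSPH8 at -7.23, SETDB1 at -6.72, ATF7IP at -5.32, PPHLN1 at -5.28 and EHMT1 at -2.02.

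The unsorted pools were set side by side to see where the 10 genes differed without an HLA sort. The high-screen control over the low-screen control gave 23 of 99 sgRNAs above 1 (23.2%, 15.3 to 32.8%, beside 22.6% of all gene-targeting sgRNAs). Another 30 lay below -1 (30.3%, 21.5 to 40.4%, beside 23.7%). RSA called 0 genes enriched and 0 depleted, beside 0.831% and 0.733% of all 20341 genes. The median of gene medians was -0.44 and that over all genes -0.02, and 8 of the 10 gene medians were below 0. A depleted RSA p under 0.05 was reached by 5 of the 10 genes and an enriched one by 3, beside 23.5% and 23.9% of all genes. The pools come from screens with different IFN-γ doses and sort days and from 1 library each, and these cannot be told apart.

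**Figure D4:**
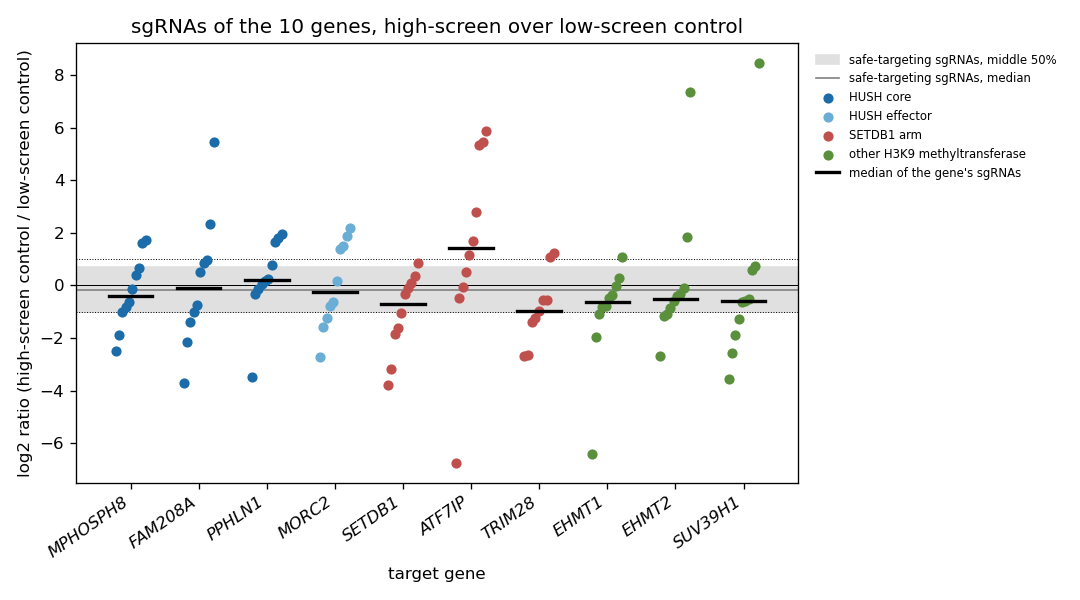
Each point is 1 sgRNA, placed by its log2 ratio of the high-screen control over the low-screen control, with the 10 genes along the horizontal axis, dotted lines at 1 and -1, and the grey band for the middle 50% of the safe-targeting sgRNAs. The ATF7IP median of 1.42 lies above the band, the other 9 medians lie between -0.98 and 0.21, and isolated points above 5 belong to sgRNAs with 0 or 1 reads in the low-screen control.

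TRIM28 and SETDB1 had the lowest summed ratios and the lowest medians of the 10 genes in this comparison, although the place of SETDB1 by median depended on the read minimum. TRIM28 had 22.5 CPM in the high-screen control and 45.4 CPM in the low-screen control, a ratio of 0.496 at percentile 1.77 of all genes. Its median log2 ratio was -0.98 (percentile 5.24). Numbers 6 and 1 were lowest at -2.67 and -2.65, with 33 and 43 reads in the high-screen control against 923 and 1190 in the low-screen control. However, numbers 7 and 4 lay above 1, at 1.24 and 1.07, with 128 and 70 reads against 235 and 145. The depleted RSA p was 0.0104 (adjusted p 0.142, rank 1488), with 7 of 9 sgRNAs at or beyond the best rank.

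SETDB1 had 20.5 CPM in the high-screen control and 33.3 CPM in the low-screen control, a ratio of 0.614 (percentile 5.76). Of its 10 sgRNAs 5 lay below -1 and 0 above 1. The lowest were number 8 at -3.80 (3 reads against 203) and number 5 at -3.17 (14 reads against 561), and the highest was number 9 at 0.87 (67 reads against 159). Its median was -0.69 and the depleted RSA p 0.0349 (adjusted p 0.192). Where both pools had to hold at least 10 reads, number 8 dropped out and the median became -0.32 (percentile 27.8), above those of FAM208A (-0.73), SUV39H1 (-0.62), EHMT2 (-0.59), EHMT1 (-0.49) and MPHOSPH8 (-0.39). The median of TRIM28 stayed at -0.98 (percentile 3.76), the lowest of the 10 genes under either minimum.

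ATF7IP lay on the other side from its partner SETDB1, with 37.6 CPM in the high-screen control and 20.3 CPM in the low-screen control, a ratio of 1.86 at percentile 97.2. Its median log2 ratio was 1.42 (percentile 97.9), and 6 of its 10 sgRNAs were above 1. For 3 of those, numbers 5, 8 and 3, the low-screen control held 1, 0 and 0 reads and the high-screen control 35, 16 and 15. The others were number 4 at 2.80 (109 reads against 67), number 10 at 1.70 (275 against 369) and number 2 at 1.14 (156 against 307). Number 1 went the opposite way, with 0 reads in the high-screen control and 173 reads in the low-screen control. The enriched RSA p of 0.00348 ranked 657 of all genes, with an adjusted p of 0.108. With at least 10 reads required in both pools 6 sgRNAs were left and the median was 0.82 (percentile 94.9).

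The remaining genes had summed ratios nearer to the median over all genes. The summed ratio of the high-screen control over the low-screen control was 0.709 for SUV39H1, 0.748 for EHMT1, 0.780 for EHMT2, 0.852 for FAM208A, 0.986 for MORC2, 1.02 for MPHOSPH8 and 1.31 for PPHLN1, where the median over all genes was 0.999. SUV39H1 had a median log2 ratio of -0.60 and a depleted RSA p of 0.0282 (adjusted p 0.180), smaller than that of SETDB1. It also had an enriched RSA p of 0.0337 (adjusted p 0.188), from number 6 alone, so it counts on both sides. EHMT2 and EHMT1 had medians of -0.50 and -0.65 with depleted RSA p of 0.0444 and 0.0452. Single sgRNAs absent from 1 pool gave the widest ratios. SUV39H1 number 6 had 132 reads in the high-screen control and 0 reads in the low-screen control, and EHMT2 number 7 had 61 and 0. EHMT1 number 9 ran the other way with 0 reads in the high-screen control and 139 reads in the low-screen control. FAM208A ranged from -3.73 for number 10 (10 reads against 600) to 5.46 for number 7 (16 against 0), and its median of -0.10 became -0.73 with at least 10 reads in both pools.

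A list of 27 further genes of H3K9 methylation was read in the same way. It held H3K9 methyltransferases and demethylases, HP1 proteins, HUSH-related genes and partners of EHMT1 and EHMT2. Of the 27, 0 were called in either direction against the high-screen control, against the low-screen control, or between the pools, beside the shares of all genes given above. Their gene medians against the high-screen control ran from -6.79 to -0.57, with a median of -4.65 beside -4.54 over all genes, and 32 of their 244 scored sgRNAs lay above 1 (13.1%, 9.15 to 18.0%).

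MORC1, a germline relative of MORC2, had the smallest enriched RSA p of that list against the high-screen control, 0.00618 (adjusted p 0.162), with 4 of 9 sgRNAs above 1 and a summed level of 88.4 CPM in the HLA-B high sorted library, 46.3 CPM in the high-screen control and 51.6 CPM in the low-screen control. Its median was -1.61. KDM3B, an H3K9 demethylase, had the smallest depleted RSA p, 0.00158 (adjusted p 0.127), with 7 of 8 sgRNAs below -1 and a median of -6.79. KDM4A, another demethylase, was left with 1 read over its 10 sgRNAs after the sort, against 523 in the high-screen control and 1873 reads in the low-screen control. Its 7 scored sgRNAs were all below -1 and its depleted RSA p was 0.00640 (adjusted p 0.149).

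For scale, the same scoring called 2 of the 6 core polycomb (PRC2) genes enriched against the high-screen control, EZH2 and EED, and 0 depleted. EZH2, the H3K27 methyltransferase, had 2062 CPM in the HLA-B high sorted library, 25.6 CPM in the high-screen control and 41.0 CPM in the low-screen control. Against the high-screen control 7 of its 9 sgRNAs lay above 1, with a median of 5.28 and an RSA p of 2.99e-15. EED, its partner, had 354.0 CPM in the HLA-B high sorted library and 30.0 CPM in the high-screen control, with a median of 3.04 and an RSA p of 1.14e-06. SUZ12 had 825.0 CPM and 17.2 CPM in these libraries and all 6 of its scored sgRNAs above 1, with an RSA p of 6.50e-07, although only 2 lay at its best rank, so it was not called. Between the pools EED and SUZ12 were called depleted, with medians of -1.75 and -1.80. None of the 10 H3K9 genes had more than 2 sgRNAs above 1 against the high-screen control, where genes of the further list, MORC1 among others, had up to 4. Against the low-screen control MORC2 had 4. Of 8 tested genes of DNA methylation, which often accompanies H3K9 methylation, 0 were called in any comparison. Against the high-screen control MBD1 had an enriched RSA p of 9.64e-05 (adjusted p 0.0672) from 3 sgRNAs, and 1 sgRNA held 81.5% of its sorted reads. Its enriched RSA p against the low-screen control was 0.0831. DNMT3B and TET1 had depleted RSA p of 0.00231 and 0.00629 against the high-screen control, with adjusted p of 0.129 and 0.149.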

How the data were processed

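The authors deposited unnormalized read counts for each sgRNA. By the methods, reads were trimmed with fastx clipper or cutadapt and mapped with Bowtie2 to the sgRNA library, multi-aligning reads were dropped and the rest counted. The processing notes of the submitters also list bcl2fastq, with versions not given in the sources used here. Unmatched reads were excluded (21.9% of the HLA-B high sorted library, 20.6% of the high-screen control, 12.1% of the low-screen control). An unlisted sgRNA was given 0. Title and data name of the low-screen control disagree on the antibody of its screen.

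Both libraries of a comparison were scaled to the mean of their depths, 1 read was added, and sgRNAs with at least 10 reads in the unsorted pool (in either, between pools) were scored. RSA, the method the study named, ranked all sgRNAs from each end, one-sided. A count model needs replicates and was not fitted. The RSA script was tested on simulated data that lacked the loss of sgRNAs seen in the sort. That checks the calculation and not the error rate of the call here. Positions come from GENCODE release 44 lifted to GRCh37, matched by gene identifier for 10 of 10 genes. Python 3.11.15, numpy 2.4.6, pandas 2.3.3, scipy 1.17.1 and matplotlib 3.10.9 were used.

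The 10 genes and the lists were chosen with earlier results of these data known. All 10 were described, each with its highest and lowest sgRNA and all above 1, and other sgRNAs were added after their values were seen. A gene of another list was named if called in any comparison or at an RSA p below 0.01 against the high-screen control. Alternatives changed the added read, the minimum, the scaling, the call rule and the sgRNAs used.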

Additional observations from a re-analysis of the deposited data

How the results depend on the processing

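None of the 10 genes was called in any comparison under any alternative run. No paired analysis was possible because each group held 1 library. Against the high-screen control the median of the 10 gene medians was -4.84, and it was -3.04 with 5 reads added and -0.62 with summed counts per gene. Against the low-screen control it was -6.97, and it was -4.84 with 5 reads added, -6.00 with no minimum and -0.86 with summed counts. Summing lets a few abundant sgRNAs outweigh absent ones. With sums PPHLN1 and EHMT2 were above 0 in both comparisons. EHMT1 (0.12) was above 0 against the high-screen control and ATF7IP (0.74) against the low-screen control. Of the values of single genes 14 moved by more than the SD of the gene's sgRNA ratios, all with summed counts. That SD is wide, so medians of genes split between present and absent sgRNAs also shifted within it. Against the high-screen control EHMT2 (-2.60) was at -0.26 with a minimum of 50 reads and -4.78 without its highest sgRNA. ATF7IP (-2.93) was at -1.33 with no minimum and -4.73 with a minimum of 50 reads there. MORC2 (-1.81) was at -3.85 without its highest sgRNA. For medians only the highest ratio of a gene was dropped, never the lowest, so this alternative could only lower them. Against the low-screen control ATF7IP (-5.32) was at -1.61 and EHMT2 (-7.43) at -3.97 with no minimum. MORC2 (-1.30) was at -3.39 without its highest sgRNA.

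Counts over all genes moved more. For these counts each gene's most extreme sgRNA was the highest for enriched calls and the lowest for depleted calls. Dropping it gave 192 enriched genes (108 in the main analysis) and 163 depleted (85) against the high-screen control. Against the low-screen control it gave 198 (131) and 198 (119), and between the pools 253 depleted (149). Scoring only sgRNAs on the side of the call, chosen after seeing the data, gave 63 enriched (108) and 75 (131). Asking for 4 sgRNAs beyond -1 gave 144 depleted (85). Between the pools a minimum of 50 reads gave 111 enriched (169) and 10 reads in both pools, also chosen later, 80. Without its most extreme sgRNA ATF7IP reached an RSA p of 0.000981 between the pools with under 4 sgRNAs at its best rank, and with a minimum of 50 reads the smallest enriched p of the 10 genes was 0.0335. At these depths 0 reads allows up to 0.0875 CPM after the sort.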
